A study of Homo sapiens with 12 samples.

Results

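KD3 is 1 of 3 short hairpin RNAs against METTL14 that were expressed in H1, an established human embryonic stem cell line, and the comparison described here sets its libraries against those of the other 2 hairpins, KD1 and KD2. The libraries were chosen by cell line and hairpin label only: 2 KD3, 2 KD1 and 2 KD2 libraries of H1, which is 6 of the 12 libraries in the study. No library of the control hairpin SCR has weight in this comparison, although the 2 H1 SCR libraries serve below to place genes. Every cell population, SCR included, had been transduced with a lentiviral SMARTvector that expresses its hairpin under doxycycline, and stable cells were kept by puromycin selection. All were grown for 10 days as embryoid bodies, the aggregates in which pluripotent cells differentiate, from 500 cells per microwell and with doxycycline at 2 µg/ml throughout, so no library comes from cells without vector or drug. The sources do not say how many cell populations were transduced for each hairpin, so an effect of the hairpin and a difference between the cell populations that carry it cannot be told apart. The sources do not say whether the libraries of a hairpin came from separate cultures, and p-values then measure only the spread between these libraries, which may be technical.

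METTL14 is a subunit of the methyltransferase complex that places N6-methyladenosine (m6A) on RNA, where it partners the catalytic subunit METTL3. A short hairpin RNA is processed to a small interfering RNA that directs cleavage or repression of RNAs it pairs with, so hairpins that pair with different stretches of one transcript share the intended target and need not share other ones. Cells in embryoid bodies leave pluripotency and form a mix of early tissues, of which neural ectoderm, with its forebrain, midbrain and hindbrain territories, is a usual one.

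Library depth was 36609628 to 43418128 estimated counts over the 6 knockdown libraries of H1. Levels are given as CPM, the counts of a gene scaled to a common library size after TMM normalisation, and CPM is not corrected for gene length. Across 10772 genes averaging 10 CPM or more, the SD of the log2 difference between libraries of the same hairpin was 0.21 for KD1, 0.26 for KD2 and 0.29 for KD3. Between a KD3 library and a library of another hairpin it was 0.31 to 0.50. Between a KD1 and a KD2 library it was 0.29 to 0.45, so most of this range was not particular to KD3. The replicates of each hairpin are numbered here in sample order, because the labels carry no replicate number. KD3 replicate 2 stood farthest from the KD1 libraries, at 0.49 to 0.50, and its levels followed transcript GC content more than those of KD3 replicate 1 (described below).

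The targeted gene did not separate KD3 from the other hairpins. METTL14 (ENSG00000145388, chr4:118685368-118715433, plus strand, GENCODE 29 on GRCh38) stood at 8.89 and 13.5 CPM with KD3, at 11.1 and 10.99 CPM with KD1, at 17.7 and 14.8 CPM with KD2 and at 29.8 and 43.8 CPM with SCR. The KD3 libraries lay on either side of the KD1 libraries, under both KD2 libraries and far under SCR. Against the mean of KD1 and KD2 the log2 fold change was -0.26 (SE 0.21, edgeR adjusted p 0.599), and over 16 other ways of processing it ran from -0.59 to 0.01 without passing the threshold. No member of the m6A writer complex, METTL14 included, and no reader or eraser of the mark passed in the edgeR test. These were 0 of 9 and 0 of 11 tested genes. An unadjusted p under 0.05 was seen in 0 and 1 of them, and DESeq2 called 0 and 1. None of 13 genes of the small RNA pathway (DROSHA, DICER1, the AGO proteins and their partners) was called by edgeR or by DESeq2, and 1 had an unadjusted p under 0.05.

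KD3 differed from the average of the other hairpins in 665 of 24898 genes tested (2.67%), 374 higher (1.50%) and 291 lower (1.17%), at an edgeR adjusted p under 0.05. Taken singly, KD3 differed from KD1 in 1152 genes (4.63%) and from KD2 in 251 genes (1.01%). Of the 665 genes, 529 were also called against KD1 and 206 against KD2, while 384 were called against KD1 and not against KD2. A gene is therefore called set apart in KD3 below only where it was called against the mean, against KD1 and against KD2, all in 1 direction. This held for 145 genes (0.582% of those tested), 71 higher (0.285%) and 74 lower (0.297%), with median log2 fold changes against the mean of 1.34 and -1.09. The same contrast drawn for the other hairpins called 929 genes for KD1 (3.73%) and 101 for KD2 (0.406%); these contrasts share libraries, and the counts are given only side by side.

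**Figure D1:**
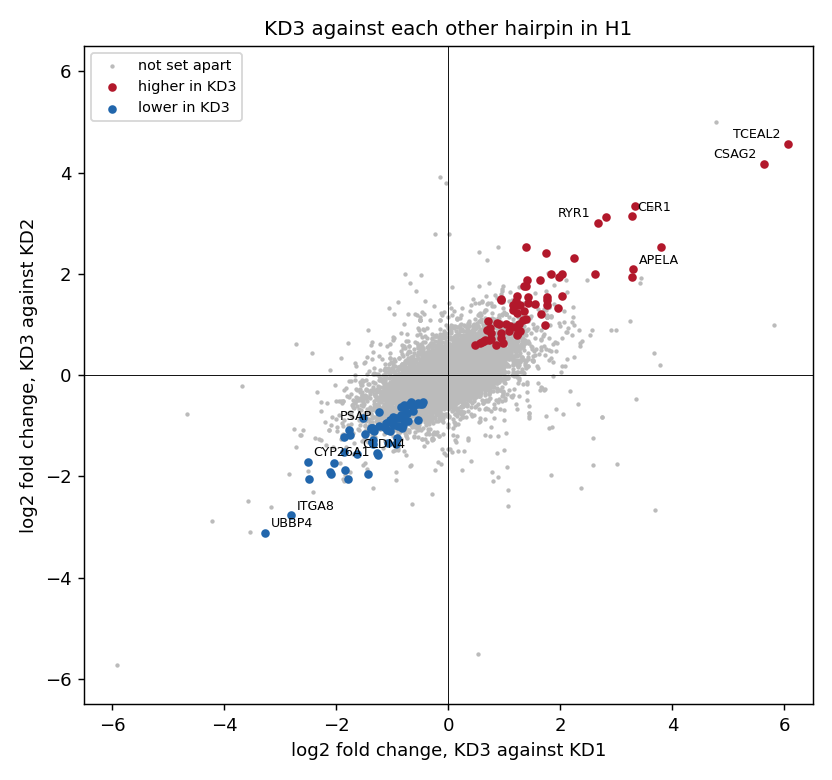
Each point is a gene that averaged 1 CPM or more over the 6 H1 knockdown libraries, placed by its log2 fold change in KD3 against KD1 (x axis) and against KD2 (y axis). The genes set apart in KD3 (red higher, blue lower) lie in the upper right and lower left corners, with TCEAL2 and CSAG2 farthest up and UBBP4 and ITGA8 farthest down; RNU6-228P and MIR196A2 fall outside the axes.

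How many genes are set apart depends on single libraries. Without KD3 replicate 2 the count was 22, and 17 of the 145 genes were among them. Without KD3 replicate 1 it was 57, with 44 of the 145 among them, and leaving out a KD1 or KD2 library gave 26 to 48. The direction of change was the same for all 145 genes in every alternative in which they were tested.

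Among the genes set apart upward RYR1 had a high level and a large change together. RYR1 (ENSG00000196218, chr19:38433699-38587564, plus strand), the calcium release channel of the sarcoplasmic reticulum of skeletal muscle, stood at 158 and 161 CPM with KD3, at 23.1 and 27.0 CPM with KD1, at 19.6 and 20.1 CPM with KD2 and at 12.2 and 9.77 CPM with SCR. Both KD3 libraries were far above every other H1 library. The log2 fold change against the mean of KD1 and KD2 was 2.84 (SE 0.17, edgeR adjusted p 4.77e-05), and against SCR it was 3.86 (edgeR adjusted p 4.31e-05). KD1 was itself above SCR for this gene, by a log2 of 1.19 (edgeR adjusted p 0.00806). The muscle list gave no call: none of 11 tested genes of heart and muscle was called by edgeR, although 2 had an unadjusted p under 0.05 upward and 4 downward, and DESeq2 called 1 lower.

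TCEAL2 (ENSG00000184905, chrX:102125688-102127711, plus strand), of the TCEA-like family of nuclear proteins, was close to absent with the other hairpins in H1. It stood at 4.70 and 5.43 CPM with KD3, against 0.0506 and 0.0937 CPM with KD1, 0.235 and 0.185 CPM with KD2 and 0.333 and 0.363 CPM with SCR. The H1 groups did not overlap, and the log2 fold change was 5.31 (SE 0.23, edgeR adjusted p 2.93e-06). In MEL1, the second embryonic stem cell line of the study, TCEAL2 was higher in every library than in H1. It stood there at 25.8 CPM with SCR, 14.9 and 18.6 CPM with KD1 and 13.8 CPM with KD2. CSAG2, a cancer/testis antigen gene on the X chromosome, stood at 5.78 and 5.35 CPM with KD3 and at 0.0506 to 0.53 CPM in the other H1 libraries. Its log2 fold change was 4.91 (SE 0.52, edgeR adjusted p 0.00149), and its near-identical neighbour CSAG3 was set apart too, at 3.06 (SE 0.40). Estimated counts divide reads between such copies, so which copy was higher is uncertain.

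Secreted regulators of development were among the 10 largest rises. CER1, a secreted antagonist of Nodal, BMP and WNT ligands, stood at 5.26 and 5.85 CPM with KD3, 0.607 and 0.539 CPM with KD1, 0.749 and 0.507 CPM with KD2 and 2.38 and 2.37 CPM with SCR. KD3 was thus the highest group, SCR lay between, and KD1 and KD2 were lowest, with a log2 fold change of 3.20 (SE 0.30, edgeR adjusted p 0.000961) against their mean. APELA, the peptide hormone that signals through the apelin receptor, stood at 9.70 and 11.4 CPM with KD3, 0.986 and 1.15 CPM with KD1, 3.34 and 1.57 CPM with KD2 and 4.53 and 3.17 CPM with SCR. Its log2 fold change was 2.69 (SE 0.25, edgeR adjusted p 0.00142), and its receptor gene APLNR was set apart in the opposite direction. APLNR stood at 0.994 and 0.793 CPM with KD3, against 2.73 and 3.47 CPM with KD1, 3.32 and 4.15 CPM with KD2 and 2.31 and 2.30 CPM with SCR. All KD3 values were under all others, with a log2 fold change of -1.93 (SE 0.25, edgeR adjusted p 0.00421), which lost the threshold without KD3 replicate 2 (-1.77, adjusted p 0.0759).

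Large rises were also seen in EPHA5, SLITRK3 and D21S2088E. EPHA5, a receptor for ephrins on growing axons, stood at 3.17 and 2.90 CPM with KD3 and between 0.328 and 0.749 CPM in the other 6 H1 libraries (log2 fold change 2.97, SE 0.38, edgeR adjusted p 0.00374). SLITRK3, a synaptic adhesion protein, stood at 10.3 and 8.95 CPM with KD3 and between 1.44 and 2.62 CPM elsewhere in H1 (2.27, SE 0.26, edgeR adjusted p 0.00213). Neither gene overlapped between KD3 and the rest. D21S2088E, a long noncoding RNA gene on chromosome 21, differed from these 2 genes: KD3 (15.8 and 13.5 CPM) was at the level of SCR (14.4 and 18.4 CPM), while KD1 (2.23 and 2.53 CPM) and KD2 (5.09 and 2.26 CPM) were lower, with a log2 fold change of 2.31 against them (SE 0.26, edgeR adjusted p 0.00215).

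The genes with the highest CPM among those set apart upward, besides RYR1, were SEMA6A, FABP7, STMN2, MAPK10 and RGMB. SEMA6A, a semaphorin that guides axons, stood at 409 and 396 CPM with KD3 and at 235 to 297 CPM in the other H1 libraries (log2 fold change 0.73, SE 0.09, edgeR adjusted p 0.0023). MAPK10, the neuronal JNK kinase, stood at 108 and 131 CPM, above the 58.5 to 85.1 CPM of the other libraries (0.89, SE 0.10, edgeR adjusted p 0.0023). RGMB, a BMP co-receptor and neogenin ligand, stood at 89.7 and 99.0 CPM with KD3, 56.5 to 64.5 CPM with KD1 and KD2 and 86.2 and 86.0 CPM with SCR (0.66, SE 0.09, edgeR adjusted p 0.00582). For RGMB the difference from SCR was not called (0.13, edgeR adjusted p 0.555), and KD1 and KD2 lay under SCR and KD3 alike.

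**Figure D2:**
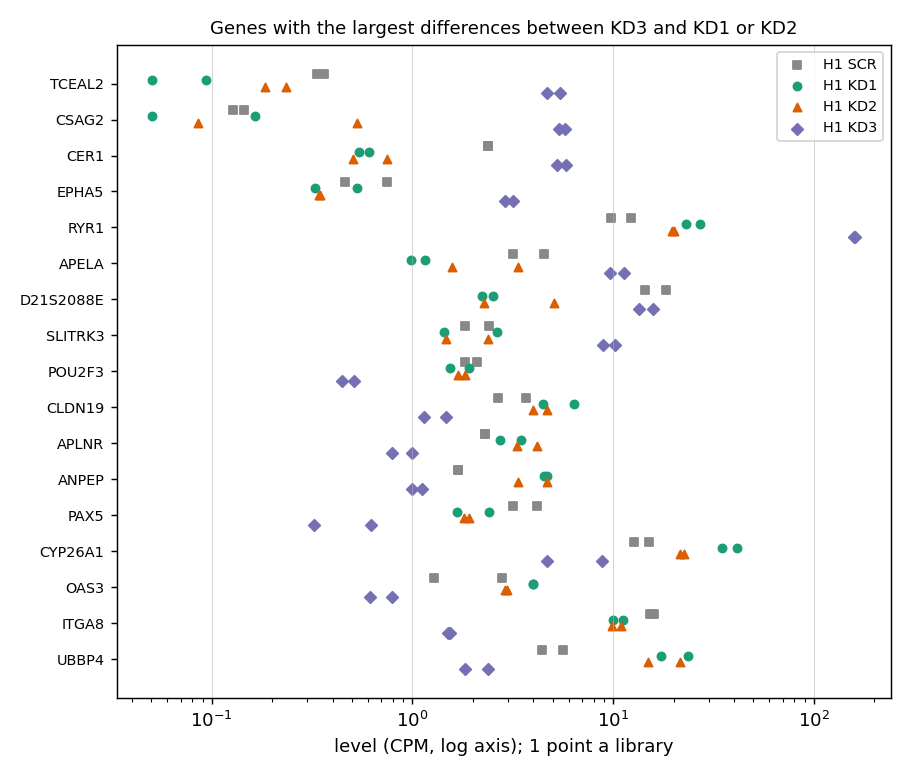
Levels in CPM (x axis, log scale) of named genes with the largest differences set apart in KD3 and values above 0, with 1 point for each H1 library and a symbol for each hairpin. The KD3 points lie to the right of all KD1 and KD2 points in the upper 8 genes and to the left in the lower 9; for D21S2088E the SCR points lie with KD3.

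A pair of short RNA genes gave the widest separations, one in each direction. They are shown because their separation is between detection and no detection, and because each is short enough to be seen whole. For MIR196A2, the gene of a microRNA in the HOXC cluster (chr12:53991738-53991847, plus strand, GRCh38.p14), the precursor is printed with its mature arms in capitals, and the mature 5p strand is printed with its seed, bases 2 to 8, in capitals, both from RefSeq. For RNU6-228P, a U6 small nuclear RNA pseudogene (chr20:14352320-14352425, plus strand, GRCh38), the transcript of GENCODE 29 is printed.
MIR196A2 hairpin: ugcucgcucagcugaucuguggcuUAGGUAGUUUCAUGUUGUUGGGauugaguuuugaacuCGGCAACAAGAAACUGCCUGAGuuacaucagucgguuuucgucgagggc
hsa-miR-196a-5p: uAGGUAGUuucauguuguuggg
RNU6-228P: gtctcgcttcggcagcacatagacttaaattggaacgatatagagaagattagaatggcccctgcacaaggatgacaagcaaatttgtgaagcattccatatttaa

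MIR196A2 had 0 counts in both KD3 and both SCR libraries of H1, and stood at 23.4 and 37.5 CPM with KD1 and at 19.5 and 16.3 CPM with KD2. In MEL1, the second embryonic stem cell line of the study, it stood at 0 CPM in the SCR library, at 55.1 and 36.5 CPM with KD1 and at 56.3 CPM with KD2. Every KD1 and KD2 library of both lines thus held reads assigned to this gene, and no SCR or KD3 library did. Whether these reads come from the locus printed above was not tested. Against a floor of 3 counts over both KD3 libraries, KD3 was at least 621-fold lower than the mean of KD1 and KD2 (edgeR adjusted p 0.000831). These are total RNA libraries, which are not made for RNAs as short as a mature microRNA, so the level of the mature strand is not measured here.

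RNU6-228P was detected with KD3 alone. It stood at 15.02 and 17.1 CPM in the KD3 libraries and had 0 counts in the other 10 libraries of the study, the 4 of MEL1 included. Against a floor of 3 counts over the 4 KD1 and KD2 libraries, KD3 was at least 924-fold higher (edgeR adjusted p 0.0002). What the reads assigned to these short genes come from was not tested.

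Among genes set apart downward with a symbol, no identical copy and an average of 1 CPM or more, UBBP4 and ITGA8 followed MIR196A2. DKK1, which averaged under 1 CPM, fell further and is described below. UBBP4, a pseudogene of the polyubiquitin gene UBB, stood at 2.39 and 1.83 CPM with KD3, 23.5 and 17.2 CPM with KD1, 14.96 and 21.6 CPM with KD2 and 5.64 and 4.40 CPM with SCR. KD1 and KD2 lay above SCR by 2.02 and 1.86 (edgeR adjusted p 0.00229 and 0.0057) and KD3 differed from it by -1.25 (edgeR adjusted p 0.0318), and between KD3 and the mean of the others the log2 fold change was -3.19 (SE 0.25, edgeR adjusted p 0.000432). Reads of a pseudogene can come from its parent, so this value is uncertain. ITGA8 (ENSG00000077943, chr10:15513949-15720125, minus strand), the integrin alpha 8 chain, stood at 1.53 and 1.51 CPM with KD3, 11.3 and 9.98 CPM with KD1, 10.96 and 9.83 CPM with KD2 and 15.2 and 15.95 CPM with SCR. The other 6 libraries did not overlap with KD3, and the log2 fold change was -2.78 (SE 0.26, edgeR adjusted p 0.000961).

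The retinoic acid hydroxylase CYP26A1 fell too. CYP26A1 stood at 8.76 and 4.68 CPM with KD3, 34.9 and 41.2 CPM with KD1, 21.4 and 22.4 CPM with KD2 and 15.01 and 12.7 CPM with SCR, with a log2 fold change of -2.11 (SE 0.29, edgeR adjusted p 0.00784). KD3 was under all other libraries, but its difference from SCR was not called (-1.05, edgeR adjusted p 0.104), whereas KD1 was above SCR (1.46, edgeR adjusted p 0.0176). Other genes of retinoid handling, chosen after their values were seen, went both ways. The retinaldehyde reductase DHRS3 was set apart upward (1.58, SE 0.25) and the retinol transporter STRA6 downward (-1.20, SE 0.14).

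OAS3, an interferon-induced sensor of double-stranded RNA, stood at 0.618 and 0.793 CPM with KD3 and between 1.28 and 4.00 CPM in the other H1 libraries (log2 fold change -2.27, SE 0.33, edgeR adjusted p 0.00717). ANPEP, the cell surface aminopeptidase CD13, stood at 0.994 and 1.12 CPM with KD3, 1.69 in both SCR libraries and 3.36 to 4.68 CPM with KD1 and KD2 (-2.02, SE 0.28, edgeR adjusted p 0.00552). Both genes lost the threshold when either KD3 library was left out, with adjusted p up to 0.076 for OAS3 and 0.0667 for ANPEP. CLDN19, a tight junction claudin, fell by 1.89 on the log2 scale (SE 0.25, edgeR adjusted p 0.00455), and POU2F3, a POU transcription factor, fell by 1.86 (SE 0.27, edgeR adjusted p 0.00674). In both, each KD3 library was under every other H1 library, at 1.48 and 1.14 CPM for CLDN19 and 0.51 and 0.446 CPM for POU2F3, and both lost the threshold without KD3 replicate 2 (adjusted p 0.0767 and 0.0956).

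Among the downward genes with the highest CPM, PSAP, ANXA5 and PPT1 had the larger changes. PSAP, the precursor of the saposins that activate lysosomal lipid hydrolases, stood at 583 and 496 CPM with KD3, 1346 and 1204 CPM with KD1, 995 and 1167 CPM with KD2 and 1145 and 993 CPM with SCR. KD3 was under every other library, by a log2 of -1.12 (SE 0.13, edgeR adjusted p 0.0023) against the other hairpins and -0.99 (edgeR adjusted p 0.00711) against SCR. PPT1, the lysosomal palmitoyl-protein thioesterase, stood at 112 and 103 CPM with KD3 and between 196 and 240 CPM elsewhere in H1 (-0.96, SE 0.11, edgeR adjusted p 0.00172). ANXA5, a calcium-dependent phospholipid binder, stood at 125 and 103 CPM with KD3, 203 to 249 CPM with KD1 and KD2 and 354 and 359 CPM with SCR (-0.99, SE 0.12, edgeR adjusted p 0.0023). For ANXA5, KD1 and KD2 were themselves lower than SCR (-0.59 and -0.71, edgeR adjusted p 0.0166 and 0.0248), and KD3 was lower again. GNAI2, ZC3H7B and KLHDC3 fell by 0.54, 0.53 and 0.60 on the log2 scale (edgeR adjusted p 0.0199, 0.0186 and 0.00838). The cyclin-dependent kinase subunit CKS1B, named after its values were seen, stood at 59.3 and 52.1 CPM with KD3 and between 116 and 202 CPM in the other H1 libraries (-1.41, SE 0.15, edgeR adjusted p 0.00149).

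Other genes set apart, chosen here after their values were seen, add receptors, transcription factors and structural proteins. NTRK2, the receptor of brain-derived neurotrophic factor, stood at 9.97 and 11.7 CPM with KD3, 2.60 to 4.84 CPM with KD1 and KD2 and 6.87 and 7.40 CPM with SCR (log2 fold change 1.64, SE 0.18, edgeR adjusted p 0.00149). NTRK3, the receptor of neurotrophin 3, stood at 22.4 and 27.1 CPM with KD3 and between 8.90 and 11.6 CPM in all other H1 libraries (1.34, SE 0.15, edgeR adjusted p 0.00149). For NTRK3 the KD3 libraries stood alone, whereas for NTRK2 the difference from SCR was not called (0.61, edgeR adjusted p 0.147). The neural POU factor POU3F2 stood at 21.3 and 33.7 CPM with KD3 and between 10.9 and 17.3 CPM elsewhere in H1 (1.22, SE 0.17, edgeR adjusted p 0.00583), with the KD3 libraries far apart from each other. PTBP2, a neuronal splicing regulator, overlapped between KD3 (64.9 and 86.5 CPM) and SCR (61.4 and 71.5 CPM) and was lower with KD1 and KD2 (29.4 to 44.8 CPM). Downward, MYL9, a myosin light chain of smooth muscle and contractile cells, stood at 49.6 and 37.8 CPM with KD3 and between 69.2 and 124 CPM elsewhere in H1 (-0.99, SE 0.12, edgeR adjusted p 0.00306). COL7A1, the collagen of anchoring fibrils, was of the other kind: KD3 (12.9 and 13.3 CPM) lay near SCR (12.2 and 10.8 CPM), from which it was not called different (edgeR adjusted p 0.578), and KD1 (41.8 and 33.4 CPM) and KD2 (22.3 and 24.6 CPM) lay above both.

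Against the SCR libraries, the 145 genes divide into different patterns. Among the 71 genes set apart upward, 33 were also called higher in KD3 than in SCR (1.19% of all genes), 27 of them with neither KD1 nor KD2 called against SCR. RYR1, TCEAL2, EPHA5, SLITRK3 and the transcription factor gene GLI1 are among the 33. In 21 of the 71, KD1 or KD2 or both were called lower than SCR (6.83% and 0.851% of all genes) while KD3 was not called, and GBX2, FABP7, STMN2 and D21S2088E are of this kind. Among the 74 genes set apart downward, 45 were called lower in KD3 than in SCR (1.79%), 35 of them with neither KD1 nor KD2 called. In 18 of the 74, KD1 or KD2 or both were called higher than SCR (4.25% and 0.691%) while KD3 was not, MAB21L2 and ANPEP among them. Both KD3 libraries lay outside the range of all 6 other H1 libraries in 61 of the 71 upward genes and 66 of the 74 downward genes, beside 6.53% and 5.83% of all genes tested; the genes were chosen for their difference from 4 of those 6 libraries. The contrasts against SCR share the KD3, KD1 and KD2 libraries with the contrast that chose the genes.

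**Figure D3:**
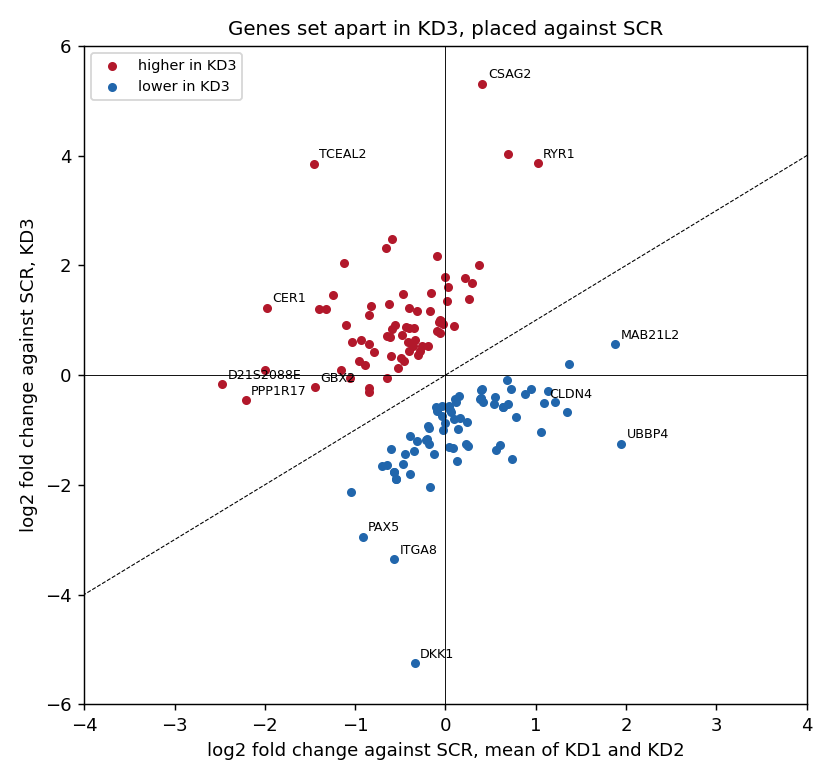
Log2 fold change against H1 SCR of the mean of KD1 and KD2 (x axis) and of KD3 (y axis) for the genes set apart in KD3, red for higher and blue for lower, without MIR196A2, RNU6-228P and 1 unnamed gene. The dashed line marks equal values. RYR1, TCEAL2, ITGA8 and DKK1 lie far from the horizontal line, where KD3 equals SCR; D21S2088E and GBX2 lie close to it, with KD1 and KD2 lower than SCR.

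Gene lists for tissues and pathways were described by their counts of called members. Over 30 lists, 446 entries were tested and 45 distinct genes were called in KD3 against the mean of KD1 and KD2, beside 2.67% of all genes tested. The median log2 fold change was 0.02 over all genes tested. Because these are bulk libraries, a gene that is lower may mark fewer cells of a type or less RNA per cell, which cannot be told apart.

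Pluripotency genes went upward where they were called. NANOG, TDGF1, DPPA4 and GDF3 rose among 19 tested and none fell. The list median was 0.33, or 0.19 over the 16 members that averaged 1 CPM or more. GDF3 was near the floor, at 0.806 and 0.347 CPM with KD3, 0 to 0.185 CPM with KD1 and KD2 and 0.564 and 0.266 CPM with SCR. Neither GDF3 nor DPPA4 was called against KD2 (edgeR adjusted p 0.24 and 0.0803). NANOG, a core pluripotency factor, stood at 8.60 and 6.79 CPM with KD3, 1.52 and 1.76 CPM with KD1, 4.15 and 1.91 CPM with KD2 and 7.04 and 6.12 CPM with SCR. KD3 did not overlap with KD1 or KD2 and did with SCR, and the log2 fold change was 1.78 (SE 0.24, edgeR adjusted p 0.00674). Against KD1 NANOG passed (2.23, edgeR adjusted p 0.00594) and against KD2 it did not (1.34, edgeR adjusted p 0.0693), so it is not among the genes set apart. The same was true of the Nodal co-receptor TDGF1 (1.72, SE 0.29, edgeR adjusted p 0.0292), whose KD3 values of 31.8 and 25.6 CPM stood beside 21.95 and 9.00 CPM with KD2. POU5F1 had a log2 fold change of 0.10 (SE 0.24, edgeR adjusted p 0.887) and ZFP42 one of -0.22, neither called. Without KD3 replicate 1, 1 member of the list was called, and without KD3 replicate 2, 2 were.

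Neural genes were higher in small numbers. Of 18 genes of neuronal differentiation, DCX, STMN2, MAP2 and GAP43 rose, none fell and the median was 0.44, with 15 of the 18 above 0. DCX, a microtubule protein of migrating neurons, stood at 23.9 and 31.8 CPM with KD3, 10.9 in both KD1 libraries, 15.9 and 12.6 CPM with KD2 and 15.6 and 24.0 CPM with SCR. KD3 was above KD1 and KD2 and overlapped with SCR (log2 fold change 1.16, SE 0.21, edgeR adjusted p 0.0193). STMN2, a tubulin-binding protein of growth cones and the member set apart in KD3, stood at 98.2 and 108 CPM with KD3, 65.5 to 79.7 CPM with KD1 and KD2 and 128 and 129 CPM with SCR (0.53, SE 0.10, edgeR adjusted p 0.0193). TUBB3, the neuronal tubulin, had a log2 fold change of -0.04. The summed level of the list was 704 to 778 CPM with KD3, 510 to 540 CPM with KD1 and KD2 and 590 to 660 CPM with SCR. MAP2 made up a large part of these sums. It stood at 274 and 324 CPM with KD3, 167 to 190 CPM with KD1 and KD2 and 144 and 207 CPM with SCR. STMN2 and GAP43 were lower with KD3 than with SCR, GAP43 at 26.0 and 26.3 CPM against 44.2 and 42.0 CPM. Without KD3 replicate 2 none of the 4 was called by edgeR, and 5 members had an unadjusted p under 0.05.

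Of 16 neural progenitor genes, edgeR called 3 higher, FABP7 and SOX1 among them, and none lower, and the median was 0.30. With all libraries, 7 were higher and 2 lower at an unadjusted p under 0.05, and DESeq2 called 3 higher and 1 lower. Without KD3 replicate 2 none was called in the edgeR test, with 3 higher and 0 lower at an unadjusted p under 0.05 and a median of 0.17, and without KD3 replicate 1, 1 was. FABP7, the brain fatty acid binding protein of radial glia, stood at 205 and 240 CPM with KD3, 106 and 84.4 CPM with KD1, 120 and 137 CPM with KD2 and 204 and 256 CPM with SCR. KD3 and SCR overlapped, and both lay above the other hairpins (log2 fold change against their mean 1.01, SE 0.13, edgeR adjusted p 0.00374). SOX1, an early neural transcription factor, stood at 33.0 and 39.7 CPM with KD3, above all other H1 libraries at 11.9 to 24.4 CPM (1.12, SE 0.20, edgeR adjusted p 0.0199). SOX1 was called against KD1 and not against KD2.

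Regional patterning genes went in both directions. Of 18 eye field and forebrain genes, edgeR called ZIC1, SIX6 and SFRP1 higher and none lower, with a median of 0.00. At an unadjusted p under 0.05, 4 were higher and 4 lower, and DESeq2 called 4 higher and 1 lower. ZIC1, a zinc finger factor of dorsal neural tissue, stood at 54.8 and 54.6 CPM with KD3, 14.8 and 18.4 CPM with KD1, 32.3 and 22.4 CPM with KD2 and 34.4 and 32.4 CPM with SCR. It was above every other library, with a log2 fold change of 1.36 (SE 0.15, edgeR adjusted p 0.00149). SIX6 passed in 7 and SFRP1 in 6 of 16 alternatives, and neither passed when any of the 6 libraries was left out, where 1 call was left in the list each time, and ZIC1 passed in all 16. SIX6, an eye field factor, and SFRP1, a secreted WNT antagonist, were called against KD1 and not against KD2. SIX6 overlapped between KD2 (14.7 and 18.1 CPM) and KD3 (22.03 and 14.1 CPM). The eye field gene RAX had a log2 fold change of -0.59 that did not pass (edgeR adjusted p 0.156).

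The list for the midbrain, the hindbrain and the dorsal neural tube gave 6 calls among 17 tested, with GBX2, FGF8 and IRX3 higher and PAX3, PAX5 and WNT1 lower. Its median was -0.70, or -0.43 over the 14 members that averaged 1 CPM or more. The count was 1 without KD3 replicate 1, 2 without KD3 replicate 2, 2 without KD1 replicate 1, 3 without KD1 replicate 2 and 11 with DESeq2, and GBX2 passed in all 16 alternatives. GBX2, a hindbrain factor that positions the boundary with the midbrain, stood at 37.5 and 29.2 CPM with KD3, 17.9 and 16.9 CPM with KD1, 12.3 and 11.2 CPM with KD2 and 41.4 and 36.3 CPM with SCR. KD3 overlapped with SCR, while the log2 fold change against the other hairpins was 1.22 (SE 0.13, edgeR adjusted p 0.00149). PAX5, a factor of the same boundary region, went the other way, at 0.322 and 0.62 CPM with KD3, 2.40 and 1.66 CPM with KD1, 1.90 and 1.80 CPM with KD2 and 3.18 and 4.16 CPM with SCR. Each KD3 value was under all others (-2.03, SE 0.36, edgeR adjusted p 0.0172), and the call was lost when either KD3 library or KD1 replicate 1 was left out. PAX3, a dorsal neural tube factor, stood at 34.9 and 43.5 CPM with KD3 and between 56.6 and 98.0 CPM in all other H1 libraries (-0.77, SE 0.13, edgeR adjusted p 0.0123). PAX3 and IRX3 were called against KD1 and not against KD2 (edgeR adjusted p against KD2 0.132 and 0.158). WNT1, a ligand of the midbrain boundary and the dorsal midline, stood at 0.161 and 0.0496 CPM with KD3, 1.54 and 1.24 CPM with KD1 and 0.235 and 0.484 CPM with KD2. Its call (-2.73, SE 0.61, edgeR adjusted p 0.0457) rested on KD1, and FGF8, a ligand of that boundary, was likewise called against KD1 only, with KD2 at 45.5 and 40.4 CPM beside 43.2 and 35.2 CPM for KD3. EN1 had 0 and 0.0248 CPM with KD3 and did not pass (edgeR adjusted p 0.0596).

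**Figure D4:**
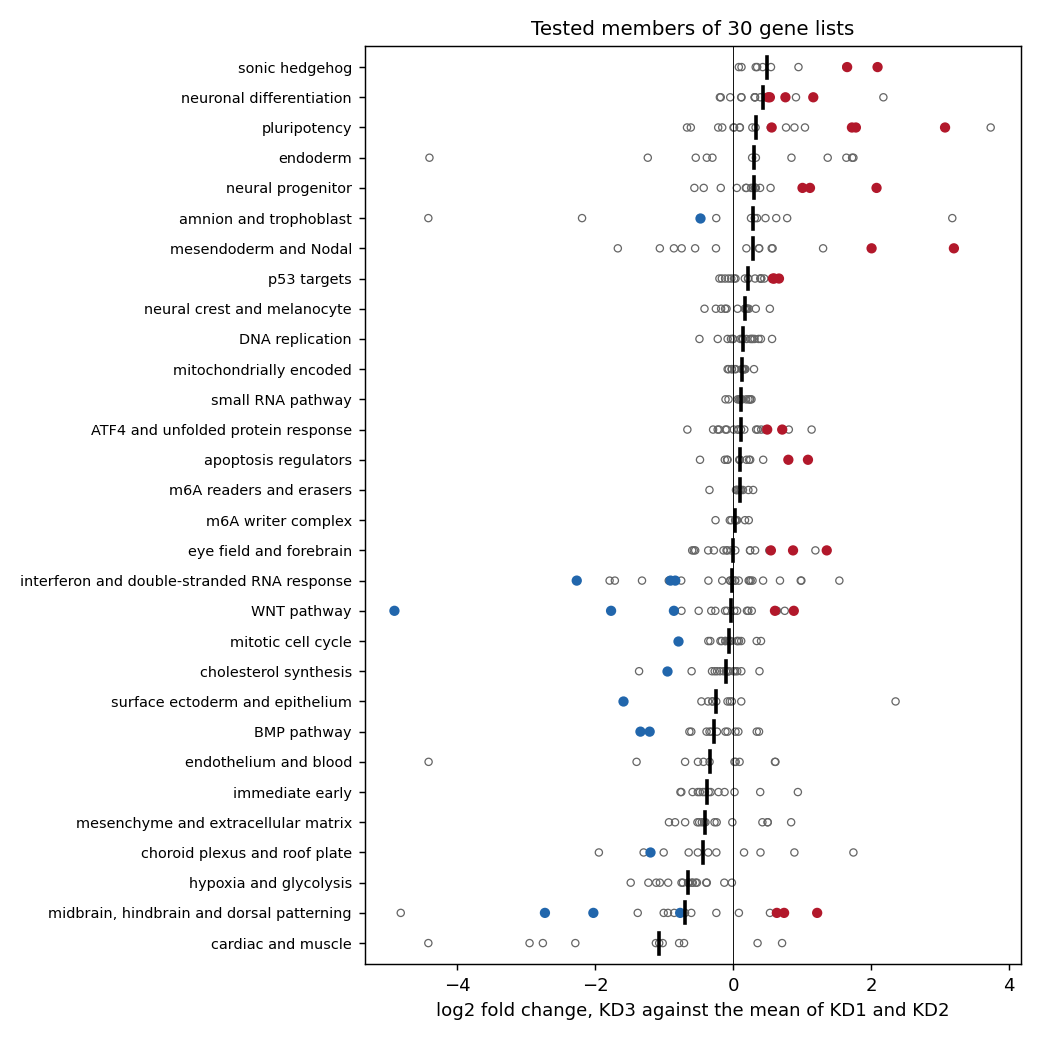
Log2 fold change of KD3 against the mean of KD1 and KD2 (x axis) for every tested member of 30 gene lists (rows, ordered by their median, the black bar); filled points were called higher (red) or lower (blue) and open points were not called. Sonic hedgehog, neuronal and pluripotency lists stand at the top with 2, 4 and 4 members called higher, and the heart and muscle list stands at the bottom with none called.

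Signalling lists held changes of ligands, antagonists and targets. In the sonic hedgehog list 2 of 10 tested genes rose, both set apart, and all 10 had fold changes above 0 (median 0.49, or 0.43 over the 5 members that averaged 1 CPM or more). GLI1, a transcription factor and direct target of the pathway, stood at 4.43 and 2.85 CPM with KD3 and between 0.984 and 1.55 CPM in the other H1 libraries, SCR included (log2 fold change 1.65, SE 0.24, edgeR adjusted p 0.00674). HHIP, a target that binds hedgehog ligand, stood at 0.994 and 0.967 CPM with KD3, 0.164 to 0.303 CPM with KD1 and KD2 and 1.15 and 0.677 CPM with SCR (2.10, SE 0.34, edgeR adjusted p 0.011). The receptor PTCH1, also a target, had a log2 fold change of 0.43 (SE 0.13) at 66.3 and 66.5 CPM with KD3 against 39.2 to 55.3 CPM elsewhere, which did not pass (edgeR adjusted p 0.134). The ligand gene SHH was under 0.4 CPM in all 8 libraries. Without KD3 replicate 1 neither GLI1 nor HHIP was called in the edgeR test, and 4 members had an unadjusted p under 0.05.

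In the WNT list, FRZB and WNT5A rose and DKK1, SP5 and WNT8B fell among 18 tested, with a median of -0.04. DKK1, a secreted WNT antagonist and target, stood at 0.0537 and 0.0248 CPM with KD3, 1.59 and 2.30 CPM with KD1, 0.92 and 0.715 CPM with KD2 and 1.38 and 1.81 CPM with SCR. The log2 fold change was -4.91 (SE 0.48, edgeR adjusted p 0.00121), and it passed in all 15 alternatives in which the gene was tested, on few counts. SP5, a WNT target, stood at 2.52 and 0.991 CPM with KD3, 8.52 and 8.34 CPM with KD1 and 4.28 and 4.17 CPM with KD2 (-1.77, SE 0.34, edgeR adjusted p 0.0293). AXIN2 and LEF1, other targets, had log2 fold changes of -0.32 and -0.12 and did not pass. WNT5A, WNT8B, SP5 and FRZB were called against KD1 and not against KD2. The 5 calls of the list became 3 without KD3 replicate 1, 1 without KD3 replicate 2, 1 without KD1 replicate 2 and 2 without KD1 replicate 1 or KD2 replicate 1.

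In the BMP list, the ligand BMP4 and the antagonist GREM1 fell, and both were set apart, among 14 tested (median -0.27). BMP4 stood at 6.12 and 3.87 CPM with KD3, 12.4 and 13.5 CPM with KD1, 9.93 and 10.7 CPM with KD2 and 7.66 and 7.20 CPM with SCR (log2 fold change -1.21, SE 0.18, edgeR adjusted p 0.00781). GREM1 stood at 4.996 and 4.54 CPM with KD3 and between 10.2 and 19.0 CPM in the other H1 libraries (-1.34, SE 0.19, edgeR adjusted p 0.00582), with counts identical under another identifier of the same gene. Without KD3 replicate 2 neither BMP4 (-0.91, adjusted p 0.0767) nor GREM1 (-1.28, adjusted p 0.0886) was called in the edgeR test, and 1 member had an unadjusted p under 0.05 upward and 3 downward. The targets ID1, ID2 and ID3 had log2 fold changes of -0.32, 0.08 and -0.08, none called. In the mesendoderm and Nodal list CER1 and the low-level ligand FGF4 rose among 14 tested.

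Stress and response lists held few calls. Of 25 genes of the interferon and double-stranded RNA response, OAS3, IFI6 and BST2 fell and none rose, with a median of -0.01; ISG15 (-0.93, edgeR adjusted p 0.128) and IFIT1 (0.68, edgeR adjusted p 0.0722) did not pass and had opposite signs. When either KD3 library was left out, none of the 25 was called in the edgeR test, while at an unadjusted p under 0.05 3 were higher and 9 lower without replicate 1, and 1 higher and 4 lower without replicate 2. IFI6 lost the threshold whichever of the 6 libraries was left out. BST2, an antiviral membrane protein, stood at 165 and 137 CPM with KD3, 332 and 305 CPM with KD1, 195 and 262 CPM with KD2 and 216 and 179 CPM with SCR (-0.84, SE 0.15, edgeR adjusted p 0.0158). IFI6 and BST2 were called against KD1 and not against KD2 (edgeR adjusted p against KD2 0.0879 and 0.149). For BST2, KD3 was not called different from SCR (edgeR adjusted p 0.228), while KD1 was called higher than SCR (0.69, edgeR adjusted p 0.0233). Of 18 p53 targets, ZMAT3, SESN1 and TP53INP1 rose by 0.67, 0.60 and 0.58 and none fell (median 0.22), and of 13 apoptosis regulators the BH3-only genes PMAIP1 and HRK rose by 0.80 and 1.09. Of 19 ATF4 and unfolded protein response genes (median 0.11), ASNS (0.71) and PSAT1 (0.49) rose against the mean of KD1 and KD2. Both are amino acid synthesis genes. ASNS passed in 5 of 16 alternatives, with values from 0.40 to 0.97, and PSAT1 in 10, and the median of the list was -0.15 without KD3 replicate 1 and 0.45 without KD3 replicate 2. PMAIP1 passed in 7 and HRK in 8 of the 16, with HRK at 0.56 without KD3 replicate 1, and neither passed in the fit that is not robust or on the H1 libraries by themselves. Against SCR, KD3 was not called different in ASNS, PSAT1, PMAIP1 or HRK (-0.08, -0.14, -0.26 and 0.32, edgeR adjusted p 0.484 to 0.865). KD1 was called lower than SCR in ASNS, PSAT1 and PMAIP1 (-0.85, -0.78 and -1.18, edgeR adjusted p 0.0212, 0.00293 and 0.0102). KD2 was called lower in PSAT1 (-0.50, edgeR adjusted p 0.0391). Of the called p53 targets, ZMAT3 and SESN1 were called higher in KD3 than in SCR (0.82 and 0.63), and TP53INP1 was not (0.23). None of these 7 was set apart, and when either KD3 library was left out, none of the p53 targets was called in the edgeR test (6 of 18 had an unadjusted p under 0.05 with all libraries). PLK1, the kinase that drives mitotic entry, was the only one of 18 mitotic genes called, at 58.5 and 53.9 CPM with KD3 and 93.7 to 114 CPM in the other H1 libraries (-0.79, SE 0.09, edgeR adjusted p 0.00239), while the list median was -0.05. Of 17 DNA replication genes none was called in the edgeR test, 6 had an unadjusted p under 0.05 upward and 1 downward, DESeq2 called 2 higher and 1 lower, and the median was 0.14.

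Hypoxia and glycolysis genes all had negative fold changes, and whether they were called depended on the filter on low counts. Of 18 tested genes 0 were called by edgeR, 7 had an unadjusted p under 0.05 and DESeq2 called 3, while edgeR with no filter on low counts called 16 lower, with 18 of 18 under 0 and a median of -0.65. The summed level of the list was 5917 to 7128 CPM with KD3, 10148 to 13225 CPM with KD1, 5738 to 9871 CPM with KD2 and 3630 to 5813 CPM with SCR. The KD2 libraries thus spread over the whole range of KD3, and without KD2 replicate 2 the median was -0.33. SLC2A1, the glucose transporter, shows this, at 888 and 791 CPM with KD3, 825 and 1650.2 CPM with KD2 and 1860.2 and 1356 CPM with KD1.

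Few markers of other tissues were called. None of 13 neural crest, 12 endoderm, 11 heart and muscle, 11 endothelium and blood or 15 mesenchyme genes was called by edgeR, with 1, 2, 6, 2 and 10 at an unadjusted p under 0.05 and 0, 0, 1, 0 and 5 called by DESeq2. The mesenchyme list had its summed level at 1051 to 1103 CPM with KD3, under the 1208 to 1555 CPM of KD1 and KD2 and the 1675 to 1775 CPM of SCR. CLDN4, a tight junction claudin, was the only one of 11 surface ectoderm and epithelium genes called: it stood at 28.2 and 15.5 CPM with KD3, 72.1 and 63.7 CPM with KD1, 56.5 and 72.1 CPM with KD2 and 31.8 and 30.4 CPM with SCR (-1.60, SE 0.23, edgeR adjusted p 0.00978). Both KD3 libraries were under all others, and the difference from KD1 and KD2 was the larger one. TFAP2C fell in the amnion and trophoblast list (-0.47, edgeR adjusted p 0.0496), a call that passed in 4 of 16 alternatives. SOX17, NKX2-5, TBX5, HAND2, PTPRC, KRT5 and KRT14, defining markers of endoderm, heart, blood and epidermis, did not pass the filter on low counts. The part of tissue composition in the results above was not tested.

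Transcript GC content moved with the contrast. Across 10407 genes averaging 10 CPM or more, the Spearman correlation of GC content with the log2 fold change of KD3 against the mean of KD1 and KD2 was -0.49, and it was -0.55 against KD1 and -0.25 against KD2; genes share their libraries here and are not independent. The median log2 fold change went from 0.21 to -0.15 between the lowest and the highest of 10 equal groups of genes ordered by GC content. The genes set apart upward had a median GC content of 47.7% and those set apart downward 56.6%, beside 49.8% over all genes tested. The libraries of a hairpin differed in this: against the mean of the H1 libraries, the correlation was 0.04 in KD3 replicate 1, -0.55 in KD3 replicate 2, 0.32 and 0.62 with KD1, -0.23 and 0.16 with KD2, and 0.23 and -0.50 with SCR. After a correction of every library for GC content and length, 132 of the 145 genes were still set apart, all in the same direction, and 269 genes were set apart in all.

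**Figure D5:**
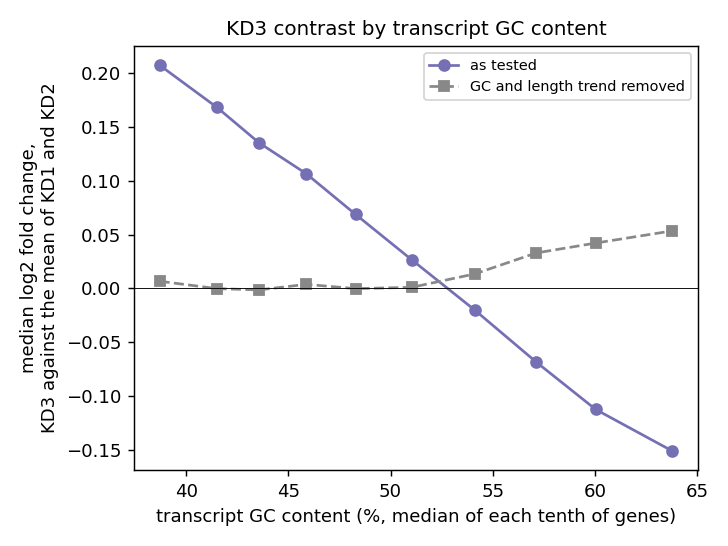
Median log2 fold change of KD3 against the mean of KD1 and KD2 (y axis) in 10 equal groups of 10407 genes ordered by transcript GC content (x axis, median percent of each group). As tested (circles) it falls from 0.21 to -0.15; after the correction for GC content and length (squares) it stays between -0.0013 and 0.05.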

How the data were processed

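Total RNA was sequenced from 12 libraries. Per the submitters' processing notes, fastp and kallisto were used; their versions are not given in the sources used here, and neither are the build, gene annotation or strand option. The authors deposited 1 table of estimated counts with no scaling visible in its values, for 65969 gene identifiers, 41981 of them with a symbol in the name table. Because kallisto shares reads out among similar transcripts, values of paralogs and pseudogenes are uncertain, and so are those of overlapping and antisense genes.

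Estimated counts were rounded. After filterByExpr over 7 groups of line and hairpin, 24898 genes were left, of which 1256 had counts identical to another identifier, in 547 sets. Group means over all 12 libraries, which share 1 estimate of spread, were fitted with edgeR 4.0.16 after TMM scaling, using its robust quasi-likelihood test (R 4.3.3, limma 3.58.1). P-values were Benjamini-Hochberg adjusted over all genes and called under 0.05. The SE is the absolute log2 fold change over the root of F. Coordinates, GC content and length come from GENCODE 29 on GRCh38, matched by identifier (90.6% of tested genes), and hairpin and mature microRNA sequences from RefSeq.

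Named genes were METTL14, the 10 largest rises and 10 largest falls set apart that had a symbol, averaged 1 CPM or more and had no identical copy, the 6 of highest CPM in each direction, and the called genes of the lists. The comparison, the 30 lists and this rule were chosen with earlier results of these data known. An older name of RIGI was dropped from the interferon list as a duplicate. The alternatives tried were other scalings (RLE, upper quartile), 2 other filters, DESeq2 1.42.0, a fit that is not robust, fits on fewer groups, a spline correction for GC content and length (5 and 4 degrees of freedom), merged copies, and each library left out. On simulated data with 200 of 23688 genes changed, KD3 against the mean recovered 68% at a log2 change of 1 and 89% at 2, with 6.55% of 168 calls false. The rule for genes set apart recovered 50% and 83%, with 0.746% of 134 calls false. Some named genes are not reported here.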

Additional observations from a re-analysis of the deposited data

Results flagged for a closer look

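Among the 4 H1 libraries of KD1 and KD2, 5 of 69 genes tested had 1 library far from the other 3 by Dixon's ratio (the gap to the nearest library over the whole range), above its 95% critical value. For 4 libraries of 1 kind chance gives about 1 such gene in 20, and 5 among 69 is near that rate. These 4 libraries are of 2 hairpins, so the rate is only a rough guide. For NANOG (ratio 0.849), KD2 replicate 1 was high at 4.15 CPM beside 1.52 to 1.91 CPM, and for D21S2088E (0.893) the same library was high at 5.09 CPM beside 2.23 to 2.53 CPM. For EPHA5 (0.912) KD1 replicate 1 was high at 0.531 CPM beside 0.328 to 0.346 CPM. For PMAIP1 (0.908) KD1 replicate 2 was low at 3.94 CPM beside 5.63 to 5.80 CPM, and for ANPEP (0.865) KD2 replicate 1 was low at 3.36 CPM beside 4.50 to 4.68 CPM. In all 5 genes the KD3 libraries lay outside the range of the 4 libraries, the high or low one included. The genes were named for a difference from these same libraries, so this was largely set by how they were chosen.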

How the results depend on the processing

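No paired analysis was possible because neither the labels nor the columns carry replicate numbers. The counts of calls followed were KD3 against the mean of KD1 and KD2 in H1, KD3 against KD1 in H1, KD3 against KD2 in H1, genes set apart in KD3, KD3 against SCR in H1, KD1 against the mean of KD2 and KD3 in H1, and KD2 against the mean of KD1 and KD3 in H1. In that order they were 1858, 2953, 923, 491, 2290, 2965 and 860 with no filter on low counts, and 1241, 2081, 588, 347, 1702, 2045 and 376 with DESeq2. After the correction for GC content and length, 469 genes were called for KD3 against KD2 in H1, 269 were genes set apart in KD3, 1608 were called against SCR and 230 for KD2 against the mean of the others. On the H1 knockdown libraries by themselves, which give no value against SCR, 1741 were called against KD1 and 1616 for KD1 against the mean of the others. The fit that is not robust called 166 against KD2. Leaving out each of the 6 libraries in turn gave, in the same order, 84 to 446, 93 to 1010, 37 to 129, 22 to 57, 108 to 598, 4 to 1040 and 31 to 85. The lowest values for KD3 against the mean, KD2 and SCR and for genes set apart came without KD3 replicate 2, and the lowest against KD1 without KD1 replicate 1. No called gene that is named changed direction under any alternative. Without KD3 replicate 2, 41 of 71 named genes lost the threshold, and without KD3 replicate 1, 37 did. The cause of these shifts was not tested, beyond the fewer libraries or the other genes tested. Depth limits the genes under 1 CPM, such as DKK1 with KD3.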
